A study of Mus musculus with 18 samples.

Results

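The 52 genes described here encode the heterotrimeric G proteins and the proteins that terminate their signaling. They comprise 13 G protein α-subunits, 5 β-subunits, 10 γ-subunits, 17 regulators of G protein signaling (RGS), 2 β-arrestins and 5 G protein-coupled receptor kinases (GRKs). They were taken by gene symbol from the 52093 symbols in the deposited tables, and all 52 had a row.

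RNA was sequenced from 18 libraries of wild type male C57BL/6 mice aged 16 weeks, after 12 weeks of high-fat feeding (HFD). There were 6 libraries of adipocytes from inguinal white adipose tissue (iWAT), 6 of adipocytes from epididymal white adipose tissue (eWAT) and 6 of whole brown adipose tissue (BAT). Below, iWAT and eWAT stand for the adipocytes of these depots. White adipocytes were the floating layer after collagenase digestion, whereas BAT was frozen whole with its vessels and nerves. All groups shared genotype, sex and diet, and no transgene or drug was used. The labels name mice 1, 2, 3, 4, 5 and 16 for both white depots, and mice 1, 2, 5, 16, 17 and 18 for BAT. A treatment field gives regular chow, against the titles and the design text, and the libraries were taken as HFD. The labels name the substrain C57BL/6 or C57BL/6J and the study's notes C57BL/6NTac.

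Between 24655056 and 42518483 reads per library lay on the rows. All 6 adipocyte markers (Adipoq, Plin1, Lep, Cidec, Fabp4 and Lipe) had a mean of at least 1 RPKM, that is, reads scaled to the length of the transcript row and to the mapped reads of the library, in every tissue. The summed level of 6 brown adipocyte markers, among them Ucp1, was 2177 to 2862 RPKM in BAT, 12.6 to 16.1 in iWAT and 2.23 to 4.77 in eWAT. Macrophage markers (8 genes, all detected in every tissue) summed to 463 to 914 RPKM in iWAT, 2620 to 4208 in eWAT and 25.6 to 50.99 in BAT. In such mixed samples, fewer cells of a type and less RNA per cell cannot be told apart. Levels below are the deposited RPKM, and overlap between tissues was judged on them unless stated otherwise. Fold changes are from edgeR after TMM scaling for library composition, which was large against BAT: without it, the median over all genes moved from 0.01 to 0.87 (log2) for iWAT over BAT, and from -0.02 to 0.89 for eWAT over BAT. BAT was sequenced on lanes 3 and 4 and the white depots on lanes 1 and 2, so that BAT differed from the white depots in lane as well as tissue, and these cannot be told apart.

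An activated receptor loads the α-subunit with GTP and frees it from the βγ dimer, and both parts then act on effectors. Gs stimulates adenylyl cyclase, Gi inhibits it and Gq activates phospholipase C-β, whereas the G12 class forms a group of its own. RGS proteins speed the hydrolysis of GTP on the α-subunit, GRKs phosphorylate active receptors and β-arrestins uncouple these receptors from G proteins. In adipocytes, cAMP made through Gs drives lipolysis and, in brown fat, heat production, and receptors coupled to Gi restrain both.

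The study silenced Gi in the adipocytes of other mice with the S1 subunit of pertussis toxin. The toxin modifies a cysteine at the fourth position from the carboxyl end of the α-subunit. The last 10 codons of the coding sequence show which members carry that residue. They were read from GENCODE transcripts of the mm9 build, without the stop codon, and the codon at that position is in capitals. A cysteine codon stood there in Gnai1, Gnai2, Gnai3 and Gnao1.
Gnai1, chr5:17772840-17772869, minus strand: aagaataacctaaaagacTGTggtctcttc
Gnai2, chr9:107517969-107517998, minus strand: aagaacaacctgaaggacTGTggcctcttc
Gnai3, chr3:107912343-107912372, minus strand: aaaaacaacttaaaggaaTGTgggctttat
Gnao1, chr8:96490923-96490952, plus strand: gccaacaatctccggggcTGCggcttgtac
The other α-subunits read here had another residue at this position, namely isoleucine in Gnaz, Gna15 and Gna12, tyrosine in Gnas, Gnaq and Gna11, phenylalanine in Gna14 and leucine in Gna13. Gnaz belongs to the Gi class by sequence and is known to be insensitive to the toxin. Its end and that of Gnas, the most abundant α-subunit of BAT, are shown for contrast.
Gnaz, chr10:74477925-74477954, plus strand: cagaacaatctcaagtacATCggcctttgc
Gnas, chr2:174171857-174171886, plus strand: cgcatgcatctccgccaaTACgagctgctc

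A mean of at least 1 RPKM was reached by 37 of the 52 members in iWAT, 35 in eWAT and 29 in BAT. Of all 52093 symbols, 14193, 14059 and 12501 reached it in iWAT, eWAT and BAT. With RPKM divided by the TMM factor, 36, 35 and 32 members did so. By the deposited RPKM, 26 members reached it in all 3 tissues and 39 in at least 1 tissue. The 13 that stayed below it everywhere were Gnaz, Gna14, Gnb3, Gng3, Gng4, Gng8, Gng13, Rgs6, Rgs9, Rgs11, Rgs17, Rgs20 and Grk4, several of which are best known from neurons, retina or taste cells. Gnb3 had at most 3 reads in every library of each tissue, as did Gng8 in iWAT, Gna14 and Rgs20 in eWAT, and Gng13 in BAT, and these were not detectable at this depth. Gna14, Gnb3, Gng8, Gng13, Rgs17 and Rgs20 had too few reads to be tested in any comparison, and Gng4, Rgs6 and Rgs11 could be tested in some.

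Of the 44 members that could be tested between iWAT and eWAT (a mean of at least 10 reads), 34 passed an adjusted p of 0.05, 14 higher in iWAT and 20 higher in eWAT. Of all genes tested, 68.6% passed, 34.1% higher in iWAT and 34.5% lower. Between iWAT and BAT, 30 of 44 members passed, 19 higher in iWAT and 11 higher in BAT, against 75.3% of all genes, 38.1% higher in iWAT and 37.2% lower. Between eWAT and BAT, 42 of 46 passed, 26 higher in eWAT and 16 higher in BAT, against 82.5% of all genes, 41.1% higher in eWAT and 41.4% lower. Differences of at least 1 on the log2 scale were seen for 20, 21 and 30 members in these comparisons, against 24.9%, 37.3% and 49.0% of all genes tested. The median log2 fold change of the members was -0.20, 0.22 and 0.32. Without TMM scaling the split of the members against BAT was 36 higher and 6 lower for iWAT and 31 higher and 10 lower for eWAT. All genes tilted the same way. Of 19745 genes 13703 were then higher and 3054 lower for iWAT, and of 20076 genes 12965 were higher and 4061 lower for eWAT. Directions against BAT that turned without scaling are therefore given at each gene. These comparisons share libraries, and 21 members passed in all 3. The share of all genes that passed in all 3 was not computed.

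**Figure D1:**
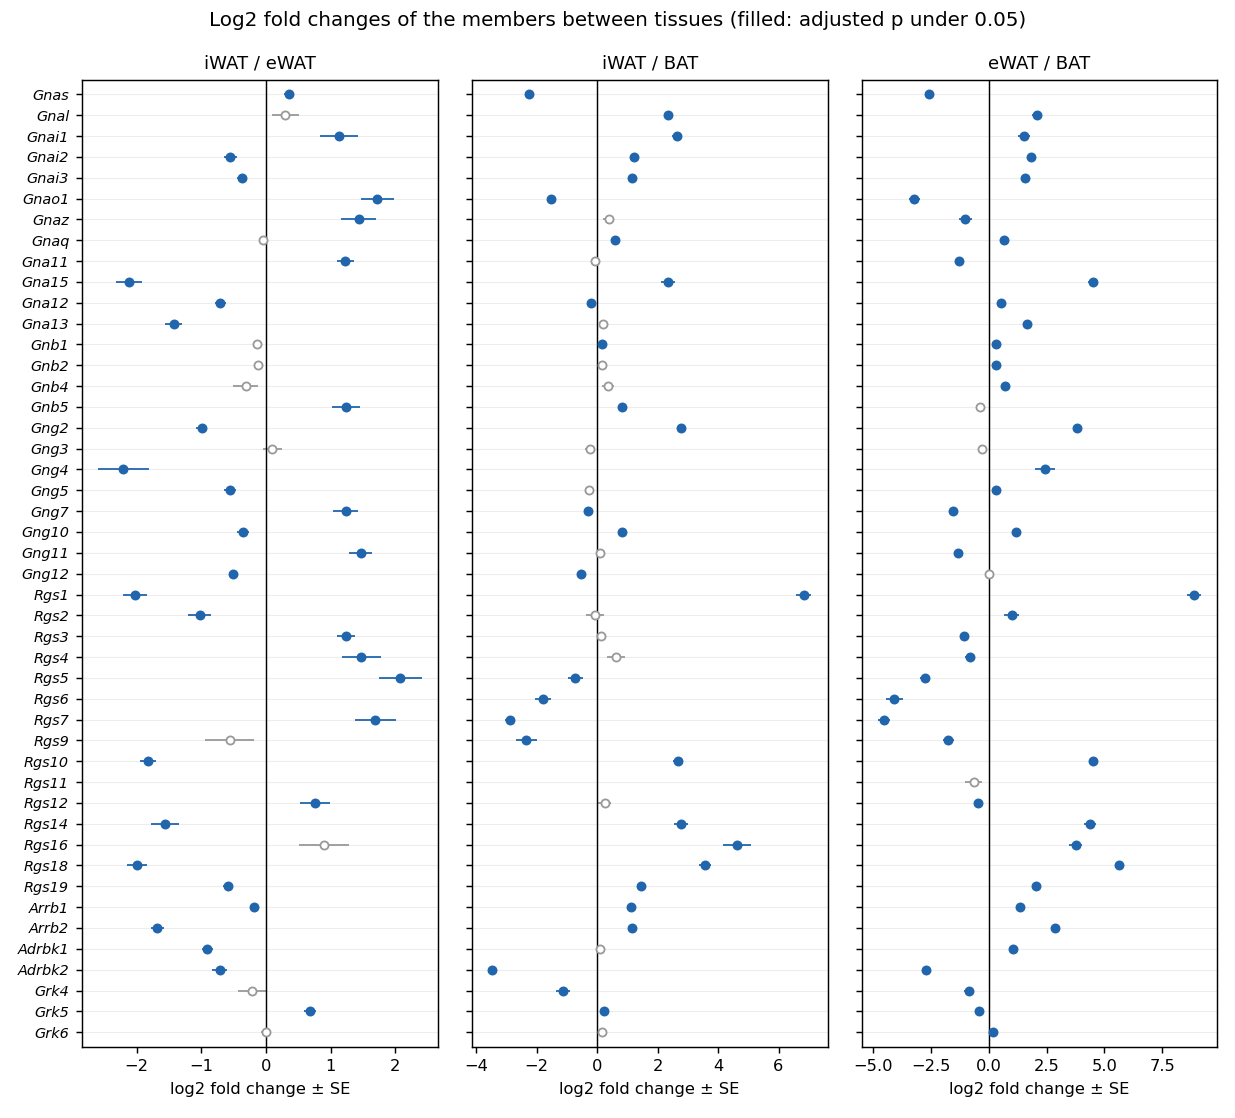
Log2 fold changes (x axis) with their standard errors (bars) for each member tested (y axis) in the 3 comparisons of 6 libraries against 6, with filled points for an adjusted p under 0.05. Rgs1 lay farthest to the right in both comparisons with BAT, at 6.83 and 8.88, and Adrbk2, Rgs7 and Gnas lay well to the left in both.

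Of the 12 α-subunits tested, 10 passed between the white depots (5 in each direction), 9 between iWAT and BAT (6 higher in iWAT) and all 12 between eWAT and BAT (8 higher in eWAT). The shares over all genes tested were 68.6%, 75.3% and 82.5%. By the deposited RPKM, the Gi class held the largest share of the α-subunit RNA of white adipocytes. Gnai2 had the highest median RPKM of the α-subunits there, with 73.4 to 119 RPKM (median 93.7) in iWAT, 125 to 167 (median 133) in eWAT and 20.6 to 30.01 (median 28.1) in BAT. By reads Gnas exceeded it in iWAT, with 17751 to 19232 reads per library against 6189 to 9707 reads, so the rank of these genes depends on the length of the Gnas row. The 3 groups did not overlap. Its level was higher in eWAT than in iWAT, with a log2 fold change for iWAT over eWAT of -0.55 ± 0.1 (adjusted p = 0.00029), and it was higher in both than in BAT, by 1.23 ± 0.1 (adjusted p = 1.8e-08) and 1.81 ± 0.098 (adjusted p = 1.3e-10) on the log2 scale.

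Gnai1 had the opposite order between the white depots and was 57.2 to 95.2 RPKM (median 82.4) in iWAT, 14.2 to 51.9 (median 41.9) in eWAT and 6.07 to 10.8 (median 8.55) in BAT. Every iWAT library lay above every eWAT library, and every eWAT library above every BAT library in RPKM. After TMM scaling the eWAT and BAT libraries overlapped for Gnai1. The log2 fold change was 1.13 ± 0.29 (adjusted p = 0.0039) for iWAT over eWAT, 2.63 ± 0.15 (adjusted p = 2.2e-10) for iWAT over BAT and 1.52 ± 0.27 (adjusted p = 0.0001) for eWAT over BAT. Gnai1 relative to Gnai2 was 0.482 to 1.297 in iWAT, 0.08503 to 0.414 in eWAT and 0.2595 to 0.527 in BAT as a ratio of RPKM values, so that iWAT libraries spanned both sides of an equal level and eWAT and BAT overlapped. The 6 adipocyte markers were also all higher in iWAT than in eWAT, with a median log2 fold change of 1.43 and sums of 11370 to 15930 RPKM against 2542 to 7898. Their part was tested neither for Gnai1 nor for the other 13 members that passed as higher in iWAT than in eWAT, namely Gnas, Gnao1, Gnaz, Gna11, Gnb5, Gng7, Gng11, Rgs3, Rgs4, Rgs5, Rgs7, Rgs12 and Grk5. Lane 1 held 2 iWAT and 4 eWAT libraries, and lane 2 held 4 and 2, so a fit within a lane is small. The iWAT over eWAT difference of Gnai1 was 0.99 in lane 1 (adjusted p = 0.13), which did not pass, and 1.58 in lane 2 (adjusted p = 0.0049). Rows of other symbols overlap both the Gnai1 and the Gnai2 row.

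Gnai3 followed Gnai2 at a lower level, with 27.8 to 40.1 RPKM (median 33.3) in iWAT, 38.8 to 46 (median 43.2) in eWAT and 7.27 to 10.7 (median 9.99) in BAT. It was higher in eWAT than in iWAT by a smaller margin, with a log2 fold change for iWAT over eWAT of -0.37 ± 0.074 (adjusted p = 0.0006), and -0.30 and -0.38 in the small fits of lanes 1 and 2 (adjusted p = 0.064 and 0.054). Both white depots were above BAT, by 1.17 ± 0.081 (adjusted p = 2.9e-09) and 1.57 ± 0.075 (adjusted p = 3.1e-11). Gnao1, which encodes the Go α-subunit best known from neurons and endocrine cells, ran the other way and was 2.18 to 3.83 RPKM (median 3.103) in iWAT, 0.441 to 1.34 (median 1.07) in eWAT and 5.14 to 6.82 (median 5.68) in BAT. The groups did not overlap, with BAT highest and eWAT lowest. Its log2 fold change was 1.72 ± 0.25 (adjusted p = 5.7e-05) for iWAT over eWAT, -1.52 ± 0.12 (adjusted p = 1.3e-08) for iWAT over BAT and -3.22 ± 0.22 (adjusted p = 2.7e-09) for eWAT over BAT. Schwann cell and neuron markers summed to 50.8 to 66.9 RPKM in BAT, 5.93 to 16.2 in iWAT and 0.6805 to 1.11 in eWAT, sums in the same order as Gnao1. Of these 5 markers, 3 could be tested and all 3 passed as lower in eWAT than in iWAT and BAT, whereas between iWAT and BAT 2 were higher in BAT and 1 in iWAT. Their part in the Gnao1 values was not tested. Gnaz stayed under 0.4 RPKM, on 5 to 23 reads in eWAT, and was lower there than in iWAT (1.43 for iWAT over eWAT, adjusted p = 0.00042) and BAT (-1.02 for eWAT over BAT, adjusted p = 0.0032), the latter not passing without scaling. The Gnaz value for iWAT over BAT was 0.39 ± 0.18 (adjusted p = 0.063) and did not pass, but did so without scaling.

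The Gs α-subunit gene Gnas was highest in BAT. It ranged over 28.97 to 32.1 RPKM (median 30.1) in iWAT, 22.2 to 26.7 (median 23.4) in eWAT and 75.8 to 108 (median 96.7) in BAT. No groups overlapped, and the iWAT libraries lay within a span of about 3 RPKM. The log2 fold change was -2.26 ± 0.11 (adjusted p = 4.8e-11) for iWAT over BAT, -2.59 ± 0.12 (adjusted p = 1.5e-11) for eWAT over BAT and 0.36 ± 0.075 (adjusted p = 0.00092) for iWAT over eWAT, the last being 0.31 in lane 1 alone (adjusted p = 0.1). The Gnas row lies on chromosome 2, from 174109821 to 174172245 on the plus strand of mm9, and joins 15 exons of 20295 bases, whereas the longest coding transcript of the gene has 3947 bases. Of its exonic bases, 22.0% are shared with the antisense gene Nespas and with AF085738. Gnal, which encodes the second Gs-class α-subunit, known from olfactory neurons and striatum, was low and had the reverse order, with 2.78 to 5.003 RPKM (median 3.64) in iWAT, 2.003 to 4.34 (median 2.898) in eWAT and 0.406 to 0.542 (median 0.491) in BAT. White adipocytes were above BAT for Gnal, by 2.34 ± 0.13 (adjusted p = 3.2e-10) for iWAT and 2.07 ± 0.19 (adjusted p = 6.2e-08) for eWAT, without overlap, and the white depots differed by 0.30 (adjusted p = 0.22), which did not pass.

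In the Gq class, Gnaq was 15.9 to 17.9 RPKM (median 17.1) in iWAT, 16.7 to 18.6 (median 17.6) in eWAT and 6.15 to 8.31 (median 7.68) in BAT. The white depots overlapped for Gnaq, with a log2 fold change for iWAT over eWAT of -0.05 ± 0.053 (adjusted p = 0.45), and both were above BAT, by 0.58 ± 0.071 (adjusted p = 1.9e-06) and 0.66 ± 0.073 (adjusted p = 6.2e-07). Gna11, its close relative, was 15.5 to 20.5 RPKM (median 17.4) in iWAT, 5.57 to 9.55 (median 7.99) in eWAT and 10.5 to 13.4 (median 12.4) in BAT. It was lowest in eWAT, with 1.23 ± 0.13 (adjusted p = 4.9e-06) for iWAT over eWAT and -1.27 ± 0.12 (adjusted p = 1e-07) for eWAT over BAT. Between iWAT and BAT the Gna11 value was -0.07 ± 0.065 (adjusted p = 0.33), but 0.78 without scaling. The ratio of Gna11 to Gnaq RPKM was 0.955 to 1.19 in iWAT, 0.299 to 0.544 in eWAT and 1.48 to 1.77 in BAT, so the tissues did not overlap in it. Gna15, a Gq-class α-subunit known from blood cells, was 0.706 to 1.43 RPKM (median 1.04) in iWAT, 3.25 to 6.43 (median 4.37) in eWAT and 0.0575 to 0.1704 (median 0.135) in BAT. It was higher in eWAT than in iWAT (-2.12 ± 0.20, adjusted p = 1.5e-06, for iWAT over eWAT) and higher in both than in BAT (2.36 ± 0.23, adjusted p = 2e-07, and 4.51 ± 0.23, adjusted p = 7e-11). Gna14 had at most 8 reads in any library.

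Both genes of the G12 class were highest in eWAT by RPKM. Gna12 was 27.4 to 37.2 RPKM (median 32.7) in iWAT, 44.9 to 63.8 (median 52.3) in eWAT and 18.9 to 28.8 (median 24.5) in BAT, and Gna13 was 14.3 to 27.5 RPKM (median 17.1) in iWAT, 44.9 to 61.95 (median 50.3) in eWAT and 8.65 to 11.97 (median 11.1) in BAT. The eWAT libraries did not overlap those of iWAT for either gene. For Gna13 the log2 fold change was -1.43 ± 0.13 (adjusted p = 1.5e-06) for iWAT over eWAT and 1.66 ± 0.09 (adjusted p = 1.4e-10) for eWAT over BAT, while iWAT over BAT was 0.20 ± 0.12 (adjusted p = 0.15) and did not pass, but did so without scaling. For Gna12 it was -0.71 ± 0.086 (adjusted p = 1.2e-05) for iWAT over eWAT and 0.53 ± 0.097 (adjusted p = 0.00013) for eWAT over BAT. The Gna12 value for iWAT over BAT was -0.21 ± 0.083 (adjusted p = 0.031), turned to 0.64 without scaling, and was lost in the paired fit with mouse as a replicate block (adjusted p = 0.3).

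**Figure D2:**
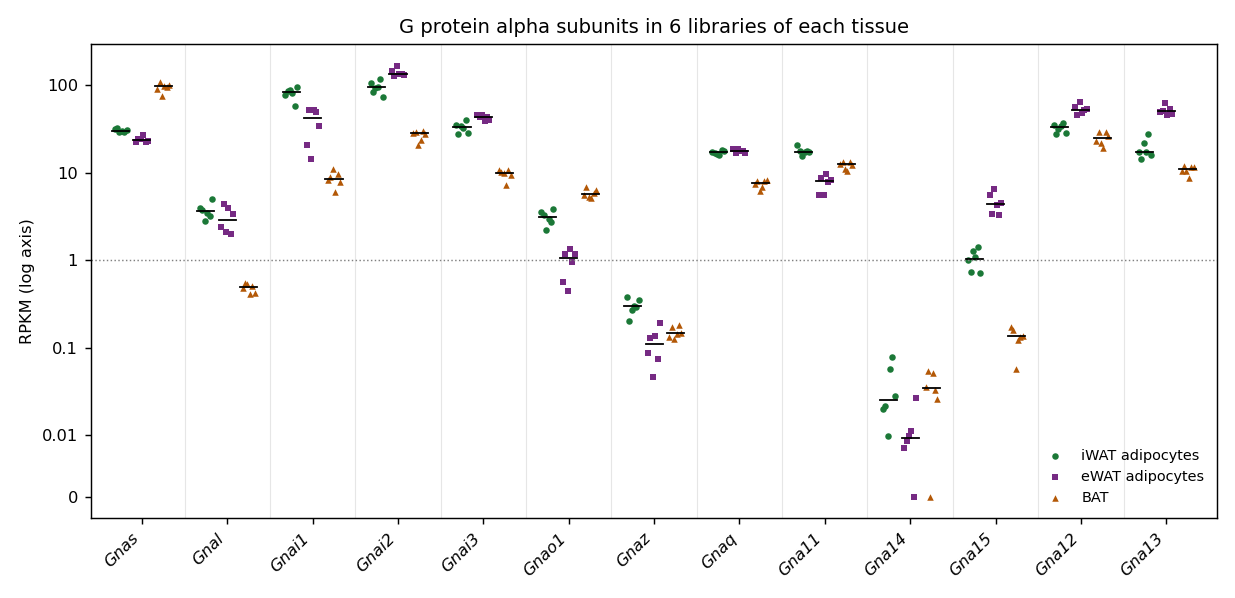
RPKM of the 13 α-subunit genes on a log axis, 1 point per library, with the median of each tissue as a black line, 1 RPKM as a dotted line and values of 0 drawn at the bottom. Gnas and Gnao1 sit highest in BAT, Gnai1 in iWAT, and Gnai2, Gnai3, Gna12, Gna13 and Gna15 in eWAT.

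The make-up of the α-subunit RNA differed between tissues. The Gi class made up 62.05% to 64.8% of the summed RPKM of the 13 α-subunits in iWAT, 55.5% to 59.2% in eWAT and 22.6% to 27.1% in BAT. The Gs class made up 9.12% to 11.5%, 6.35% to 8.04% and 44.2% to 53.2%. For neither class did any tissue overlap another. The 4 genes with the toxin's cysteine made up a median of 63.7% in iWAT, 58% in eWAT and 25.3% in BAT. The G12 class was largest in eWAT at 24.5% to 30.7%, against 13.4% to 18.3% in iWAT and 14.8% to 18.9% in BAT. The Gq class was between 7.47% and 11.3% in every library by the deposited length.

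The shares depended on the length by which reads were divided, while the order of the Gs share over the tissues did not. With the length of the longest coding transcript in place of the deposited length, the mean Gs share was 32.4% in iWAT, 24.2% in eWAT and 78.8% in BAT, and the mean Gi share was 48.4%, 48.7% and 11.4%. The mean Gq share was then 8.83%, 6.99% and 3.96%, lowest in BAT. The white depots, separate in Gi share by the deposited length, thus had nearly the same mean by coding transcript length. With the deposited length these means were 10.2% ± 0.922 (SD, n = 6), 7.04% ± 0.705 and 47.4% ± 3.27 for Gs, and 63.6% ± 0.896, 57.8% ± 1.49 and 25.2% ± 1.79 for Gi. On the deposited scale Gnas relative to Gnai2 was 0.244 to 0.414 in iWAT, 0.143 to 0.199 in eWAT and 3.16 to 4.21 in BAT.

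**Figure D3:**
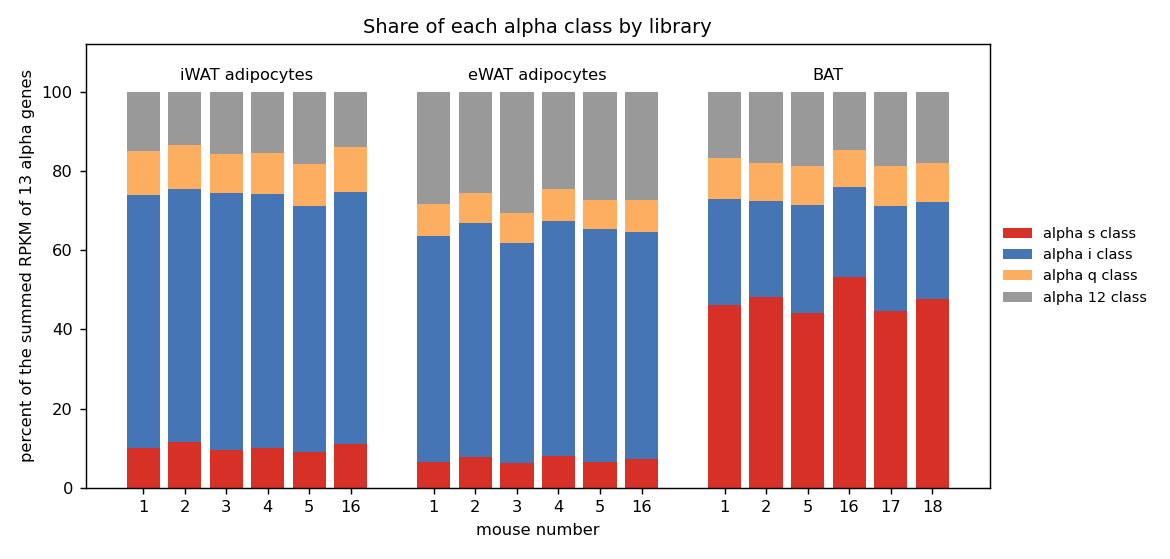
Percent of the summed RPKM of the 13 α-subunit genes (y axis) in each α class for each of the 18 libraries, labeled by mouse number (x axis). The Gs class is 44.2% to 53.2% in BAT and at most 11.5% in white adipocytes.

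Of the 4 β-subunits tested, 1, 2 and 3 passed in the 3 comparisons, and of the γ-subunits 7 of 8, 4 of 7 and 6 of 8. Over all genes tested, 68.6%, 75.3% and 82.5% passed. Both main β-subunits were lower in BAT by RPKM, and neither differed between the white depots past the threshold. Gnb1 was 67.4 to 80.9 RPKM (median 73.2) in iWAT, 76.8 to 89.04 (median 79.5) in eWAT and 37.7 to 48.3 (median 45.2) in BAT, and Gnb2 was 66.2 to 82.5 RPKM (median 74.2) in iWAT, 73.5 to 90.4 (median 80.04) in eWAT and 30.7 to 51.6 (median 44.95) in BAT. The ratio of Gnb1 to Gnb2 RPKM stayed between 0.9005 and 1.24 in all libraries. The white depots overlapped for both genes, with log2 fold changes for iWAT over eWAT of -0.14 ± 0.06 (adjusted p = 0.056) for Gnb1 and -0.12 ± 0.066 (adjusted p = 0.12) for Gnb2. Gnb1 was higher in iWAT than in BAT by 0.16 ± 0.068 (adjusted p = 0.046), a call lost with mouse as a replicate block (adjusted p = 0.21) and without iWAT mice 1 and 5 (adjusted p = 0.11). The Gnb2 value for iWAT over BAT was 0.17 ± 0.092 (adjusted p = 0.1) and did not pass, but did so without scaling. In eWAT over BAT the values were 0.32 ± 0.076 (adjusted p = 0.0011) for Gnb1 and 0.32 ± 0.099 (adjusted p = 0.0077) for Gnb2, the latter lost under upper-quartile scaling.

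The lesser β-subunits differed more. Gnb5, which encodes the atypical β5 subunit that pairs with RGS proteins of the RGS7 family, was 9.27 to 15.03 RPKM (median 11.8) in iWAT, 3.23 to 7.05 (median 5.46) in eWAT and 3.68 to 5.54 (median 4.495) in BAT. Every iWAT library lay above all others in RPKM, but iWAT and BAT overlapped after TMM scaling. The log2 fold change of Gnb5 was 1.24 ± 0.21 (adjusted p = 0.00019) for iWAT over eWAT and 0.83 ± 0.12 (adjusted p = 1.8e-05) for iWAT over BAT. For eWAT over BAT it was -0.39 ± 0.18 (adjusted p = 0.054), which did not pass and turned to 0.52 without scaling. Gnb4 was at a median of 1.73, 2.19 and 0.907 RPKM in iWAT, eWAT and BAT. It was higher in eWAT than in BAT (0.71 ± 0.10, adjusted p = 1.1e-05), and the white depots differed by -0.32 (adjusted p = 0.17), or by -0.60 without iWAT mice 1 and 5 (adjusted p = 0.0072). Its iWAT over BAT value was 0.37 ± 0.19 (adjusted p = 0.09) and did not pass, but did so without scaling.

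Among the γ-subunits, the tissues differed in which gene led. Gng11 led in iWAT and BAT and was 21.8 to 51.5 RPKM (median 33.5) in iWAT, 8.66 to 15.6 (median 12.9) in eWAT and 18.5 to 27.3 (median 20.8) in BAT. It was lowest in eWAT, with 1.46 ± 0.18 (adjusted p = 1.3e-05) for iWAT over eWAT and -1.33 ± 0.13 (adjusted p = 1.5e-07) for eWAT over BAT, while iWAT and BAT overlapped (0.11, adjusted p = 0.53, but passing without scaling). Endothelial markers summed to 101.4 to 286 RPKM in iWAT, 34.3 to 73 in eWAT and 70.7 to 102 in BAT, with medians in the same order as Gng11. All 5 of them passed as higher in iWAT than in eWAT and all 5 as lower in eWAT than in BAT. Between iWAT and BAT, 2 of the 5 passed, as higher in iWAT. The part of these markers in the Gng11 values was not tested. Gng12 led in eWAT and was 15.4 to 20.6 RPKM (median 18.1) in iWAT, 23.6 to 28.3 (median 24.7) in eWAT and 14.8 to 19.4 (median 16.8) in BAT. Its log2 fold change was -0.51 ± 0.068 (adjusted p = 2.8e-05) for iWAT over eWAT. For iWAT over BAT it was -0.54 ± 0.081 (adjusted p = 1.9e-05), turning to 0.33 without scaling, and for eWAT over BAT it was -0.0041 ± 0.083 (adjusted p = 0.97), turning to 0.91. The direction of Gng12 against BAT thus depended on scaling.

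Gng2, a γ-subunit common in blood cells and brain, had the largest log2 fold change of the tested γ-subunits in both comparisons with BAT. It was 6.95 to 9.197 RPKM (median 8.78) in iWAT, 15.7 to 20.02 (median 16.2) in eWAT and 0.646 to 0.951 (median 0.844) in BAT. The groups were separate, with -0.997 ± 0.079 (adjusted p = 4.8e-07) for iWAT over eWAT, 2.77 ± 0.095 (adjusted p = 1.7e-12) for iWAT over BAT and 3.80 ± 0.10 (adjusted p = 1.5e-13) for eWAT over BAT. Gng10 was 12.2 to 14.7 RPKM (median 13.8) in iWAT, 15 to 21.2 (median 16.9) in eWAT and 3.58 to 6.16 (median 5.03) in BAT, with -0.35 ± 0.091 (adjusted p = 0.0037) for iWAT over eWAT, 0.82 ± 0.099 (adjusted p = 2e-06) for iWAT over BAT and 1.20 ± 0.11 (adjusted p = 7.9e-08) for eWAT over BAT. The iWAT over eWAT value of Gng10 was -0.26 and -0.41 in lanes 1 and 2 alone (adjusted p = 0.15 and 0.057), and 72.0% of its exonic bases are shared with Gm20503. Gng5 was 3.99 to 4.98 RPKM (median 4.84) in iWAT, 5.64 to 7.83 (median 7.09) in eWAT and 3.07 to 4.57 (median 3.45) in BAT. It was higher in eWAT than in iWAT (-0.56 ± 0.092, adjusted p = 0.00015, for iWAT over eWAT). Its eWAT over BAT value of 0.32 ± 0.12 (adjusted p = 0.023) was lost with the replicate block (adjusted p = 0.084) and without eWAT mice 1 and 3 (adjusted p = 0.062). The iWAT over BAT value was -0.27 (adjusted p = 0.051) and 0.59 without scaling.

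Gng7, a γ-subunit known from striatum, was 1.304 to 2.15 RPKM (median 1.73) in iWAT, 0.488 to 1.09 (median 0.726) in eWAT and 1.305 to 1.77 (median 1.37) in BAT. It was lowest in eWAT, with 1.23 ± 0.19 (adjusted p = 9.2e-05) for iWAT over eWAT and -1.52 ± 0.17 (adjusted p = 5.5e-07) for eWAT over BAT. For iWAT over BAT the value was -0.31 ± 0.13 (adjusted p = 0.034), which was lost with the replicate block (adjusted p = 0.11) and without iWAT mice 1 and 5 (adjusted p = 0.18) and which turned to 0.53 without scaling. Gng3 stayed between 0.624 and 1.20 RPKM in every library and shares 23.4% of its exonic bases with Bscl2. It did not pass in the 12-library fits, with -0.24 for iWAT over BAT (adjusted p = 0.17) and -0.31 for eWAT over BAT (adjusted p = 0.068). The latter passed under upper-quartile scaling and in the fit of all 18 libraries, and was -0.42 without eWAT mice 1 and 3 (adjusted p = 0.037), but the values were 0.61 and 0.60 for iWAT and eWAT over BAT without scaling. Gng4 was under 0.4 RPKM everywhere and highest in eWAT, with -2.21 ± 0.39 (adjusted p = 0.00026) for iWAT over eWAT and 2.43 ± 0.44 (adjusted p = 0.0001) for eWAT over BAT on 0 to 4 reads in BAT. It had 25 reads in all of iWAT, 125 in eWAT and 15 in BAT. Gng4 thus reached the mean of 10 reads through eWAT alone, so a high level there was a condition of being tested.

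The β-arrestins were both highest in eWAT and lowest in BAT. Arrb2 was 3.68 to 4.98 RPKM (median 4.27) in iWAT, 11.7 to 16.4 (median 13.3) in eWAT and 1.04 to 1.497 (median 1.26) in BAT, and Arrb1 was 7.48 to 9.05 RPKM (median 8.41) in iWAT, 8.83 to 10.2 (median 9.57) in eWAT and 1.95 to 2.84 (median 2.61) in BAT. For Arrb2 the groups were separate, with -1.68 ± 0.11 (adjusted p = 1.7e-07) for iWAT over eWAT, 1.15 ± 0.11 (adjusted p = 7.7e-08) for iWAT over BAT and 2.86 ± 0.11 (adjusted p = 4.4e-12) for eWAT over BAT. For Arrb1 the white depots overlapped, and its iWAT over eWAT value of -0.18 ± 0.059 (adjusted p = 0.014) was -0.11 and -0.25 in lanes 1 and 2 alone (adjusted p = 0.37 and 0.097), and its call was lost without iWAT mice 1 and 5 (adjusted p = 0.087). Both white depots were above BAT for Arrb1, by 1.13 ± 0.073 (adjusted p = 1.2e-09) and 1.34 ± 0.075 (adjusted p = 1.8e-10). Arrb2 relative to Arrb1 was 0.428 to 0.602 in iWAT and 0.4004 to 0.593 in BAT, and 1.24 to 1.69 in eWAT, where Arrb2 exceeded Arrb1 in every library.

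Among the GRKs, the 2 genes for the kinases that βγ recruits to the membrane had different orders over the tissues. Adrbk1, which encodes GRK2, was 9.99 to 12.8 RPKM (median 12.3) in iWAT, 19.6 to 26.5 (median 21.1) in eWAT and 5.899 to 8.195 (median 7.22) in BAT. Adrbk2, which encodes GRK3, was 1.23 to 1.98 RPKM (median 1.64) in iWAT, 2.32 to 3.32 (median 2.48) in eWAT and 8.13 to 14.1 (median 12.2) in BAT. Adrbk1 was highest in eWAT, without overlap, and Adrbk2 was highest in BAT, without overlap. For Adrbk2 the log2 fold change was -3.46 ± 0.15 (adjusted p = 1.4e-11) for iWAT over BAT, -2.71 ± 0.15 (adjusted p = 1.5e-10) for eWAT over BAT and -0.72 ± 0.12 (adjusted p = 0.00013) for iWAT over eWAT. For Adrbk1 it was -0.91 ± 0.083 (adjusted p = 1.2e-06) for iWAT over eWAT and 1.04 ± 0.087 (adjusted p = 2.3e-08) for eWAT over BAT. The Adrbk1 value for iWAT over BAT, 0.11 ± 0.077 (adjusted p = 0.22), did not pass, but did so without scaling. The ratio of Adrbk2 to Adrbk1 RPKM was 0.123 to 0.155 in iWAT, 0.1002 to 0.159 in eWAT and 1.27 to 2.17 in BAT. No row of another symbol overlaps the Adrbk2 row.

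Grk5, a kinase held at the membrane without βγ, was 7.18 to 10.01 RPKM (median 8.88) in iWAT, 4.67 to 6.45 (median 5.51) in eWAT and 4.08 to 5.67 (median 4.99) in BAT. It was highest in iWAT in RPKM, though its iWAT and BAT libraries overlapped after TMM scaling. Its log2 fold change was 0.68 ± 0.094 (adjusted p = 3.6e-05) for iWAT over eWAT. Against BAT it was 0.25 ± 0.082 (adjusted p = 0.013) for iWAT, lost with the replicate block (adjusted p = 0.067), and -0.40 ± 0.09 (adjusted p = 0.00066) for eWAT, which turned to 0.50 without scaling. Grk6 was 5.55 to 7.43 RPKM (median 6.36) in iWAT, 5.85 to 7.27 (median 6.42) in eWAT and 3.08 to 4.46 (median 3.84) in BAT, with -0.0036 ± 0.069 (adjusted p = 0.97) for iWAT over eWAT. Its eWAT over BAT value was 0.20 ± 0.079 (adjusted p = 0.033), lost with the replicate block (adjusted p = 0.083) and without eWAT mice 1 and 3 (adjusted p = 0.1), and 38.2% of its row lies within the GENCODE gene of that name. The Grk6 value for iWAT over BAT was 0.16 ± 0.082 (adjusted p = 0.081) and did not pass, but did so without scaling. Grk4, best known from testis and kidney, stayed under 0.3 RPKM. It was lower in iWAT than in BAT (-1.13 ± 0.23, adjusted p = 0.00032) and lower in eWAT than in BAT (-0.88 ± 0.21, adjusted p = 0.0013), the latter lost with the replicate block (adjusted p = 0.074). The RPKM ranges overlapped, and without scaling the values were -0.28 and 0.02 and neither passed.

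**Figure D4:**
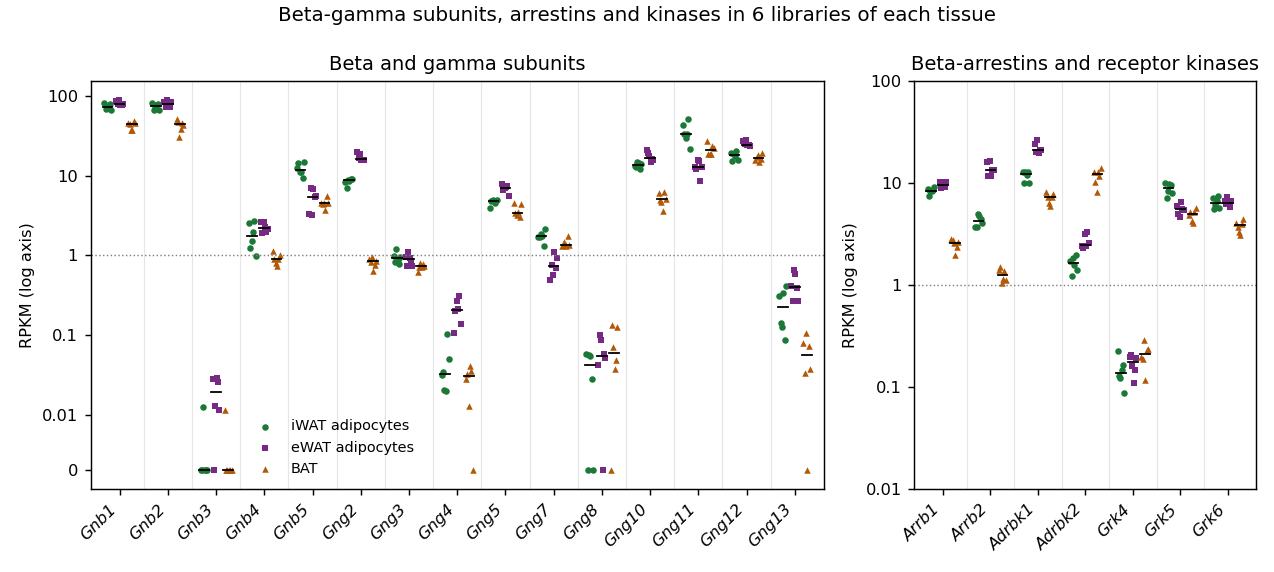
RPKM on a log axis of the β- and γ-subunit genes (left) and of the β-arrestin and GRK genes (right), 1 point per library, with tissue medians as black lines, 1 RPKM as a dotted line and values of 0 at the bottom. Adrbk2 sits highest in BAT, Arrb2 and Adrbk1 in eWAT, and Gnb1 and Gnb2 lie close together in every tissue.

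Of the RGS genes tested, 11 of 13 passed between the white depots (5 higher in iWAT), 10 of 14 between iWAT and BAT (6 higher in iWAT) and 14 of 15 between eWAT and BAT (7 higher in eWAT). Over all genes tested, 68.6%, 75.3% and 82.5% passed. The largest differences between BAT and white adipocytes among the members were those of an RGS gene. Rgs1, a small RGS protein known from B cells and other leukocytes, was 13.7 to 26.2 RPKM (median 19.3) in iWAT, 53.3 to 105 (median 77.1) in eWAT and 0.0532 to 0.209 (median 0.119) in BAT. BAT had 11 to 30 reads for it per library, against 11302 to 27168 reads in eWAT. The log2 fold change of Rgs1 was -2.03 ± 0.18 (adjusted p = 1.1e-06) for iWAT over eWAT, 6.83 ± 0.25 (adjusted p = 3.6e-12) for iWAT over BAT and 8.88 ± 0.30 (adjusted p = 9.1e-13) for eWAT over BAT. Its row is 1 stretch of 6264 bases, against 1464 bases in the longest coding transcript, so its RPKM is low for its reads.

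Rgs18, known from platelets and myeloid cells, and Rgs10, known from microglia and macrophages, had the same order. Rgs18 was 2.51 to 5.02 RPKM (median 3.85) in iWAT, 12.5 to 19.3 (median 13.8) in eWAT and 0.121 to 0.268 (median 0.198) in BAT, and Rgs10 was 4.36 to 8.14 RPKM (median 6.36) in iWAT, 18.96 to 26.2 (median 21.1) in eWAT and 0.401 to 0.798 (median 0.664) in BAT. No groups overlapped for either gene. The log2 fold changes of Rgs18 were -2.001 ± 0.16 (adjusted p = 4.4e-07), 3.58 ± 0.20 (adjusted p = 1.9e-10) and 5.61 ± 0.17 (adjusted p = 3e-13) for iWAT over eWAT, iWAT over BAT and eWAT over BAT. Those of Rgs10 were -1.83 ± 0.13 (adjusted p = 2.7e-07), 2.67 ± 0.16 (adjusted p = 4.9e-10) and 4.52 ± 0.13 (adjusted p = 2.3e-13). Rgs14, a scaffold that also binds inactive Gi, was 0.607 to 1.22 RPKM (median 0.873) in iWAT, 1.91 to 3.86 (median 2.33) in eWAT and 0.0577 to 0.107 (median 0.0861) in BAT, and Rgs19, which acts on Gi, was 9.72 to 11.6 RPKM (median 10.8) in iWAT, 14.9 to 18.8 (median 15.3) in eWAT and 2.38 to 2.91 (median 2.51) in BAT. Both were separate in all tissues, with iWAT over eWAT values of -1.57 ± 0.22 (adjusted p = 3.9e-05) for Rgs14 and -0.59 ± 0.078 (adjusted p = 2.5e-05) for Rgs19 and eWAT over BAT values of 4.37 ± 0.25 (adjusted p = 3.2e-10) and 2.06 ± 0.10 (adjusted p = 6.8e-11). Against BAT, iWAT was higher by 2.77 ± 0.23 (adjusted p = 2.1e-08) for Rgs14 and 1.44 ± 0.10 (adjusted p = 3.4e-09) for Rgs19.

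These genes belong to a set of 12 members that passed with the order eWAT above iWAT above BAT, which were Gnai2, Gnai3, Gna15, Gng2, Gng10, Rgs1, Rgs10, Rgs14, Rgs18, Rgs19, Arrb1 and Arrb2. The 8 macrophage markers Cd68, Emr1, Itgam, Csf1r, Cd14, Mrc1, Lyz2 and Ptprc also all passed in this order, and their sums did not overlap between tissues, as given above. Platelet markers summed to 11.4 to 30.8 RPKM in iWAT, 48.7 to 74.4 in eWAT and 2.84 to 6.002 in BAT. The sum was carried by Pf4, which passed in the same order, whereas Ppbp and Itga2b did not differ past the threshold between the white depots, and both were lower in iWAT than in BAT. T cell markers summed to at most 1.06 RPKM in any library and B cell markers to at most 2.17. The part of macrophage RNA in these 12 members was not tested. The share of all tested genes that passed in this order was not computed, so the size of the set has no background. Between the white depots, the calls of Gnai3, Gng10 and Arrb1 were lost in the fits of lanes 1 and 2. The Arrb1 call was also lost under upper-quartile scaling and without iWAT mice 1 and 5.

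Rgs5, a marker of pericytes, was the most abundant RGS gene of iWAT and BAT and was 53.9 to 189 RPKM (median 76.05) in iWAT, 13.04 to 37.4 (median 23.6) in eWAT and 80.9 to 114 (median 111) in BAT. The eWAT libraries lay below all others. The log2 fold change was 2.07 ± 0.33 (adjusted p = 0.00011) for iWAT over eWAT and -2.77 ± 0.20 (adjusted p = 5.1e-09) for eWAT over BAT. Its iWAT over BAT value was -0.72 ± 0.24 (adjusted p = 0.014), but the RPKM values overlapped and it turned to 0.16 without scaling. Rgs4, which is also found in pericytes and heart, was 4.39 to 15.7 RPKM (median 6.25) in iWAT, 1.73 to 4.25 (median 2.85) in eWAT and 2.04 to 5.08 (median 3.43) in BAT. It was higher in iWAT than in eWAT (1.47 ± 0.31, adjusted p = 0.00085). For eWAT over BAT it was -0.82 ± 0.23 (adjusted p = 0.0041), turning to 0.08 without scaling. For iWAT over BAT it was 0.63 ± 0.29 (adjusted p = 0.059), which passed with the replicate block (adjusted p = 0.024) and was 0.12 without iWAT mice 1 and 5 (adjusted p = 0.63). The 7 pericyte and smooth muscle markers other than these genes summed to 44.3 to 107 RPKM in iWAT, 17.9 to 33.7 in eWAT and 29.1 to 49.3 in BAT. All 7 passed as higher in iWAT than in eWAT, and 6 of 7 as lower in eWAT than in BAT. Between iWAT and BAT, 3 of the 7 passed, all as higher in iWAT, with a median log2 fold change of 0.43 over the list. Rgs5 was lower in iWAT in that comparison. The part of these markers in Rgs5 and Rgs4 was not tested.

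Rgs2, which restrains Gq, was 15.9 to 25.7 RPKM (median 20.6) in iWAT, 29.4 to 65.8 (median 39.3) in eWAT and 4.83 to 23.2 (median 16.8) in BAT. It was higher in eWAT than in iWAT (-1.03 ± 0.18, adjusted p = 0.00019, for iWAT over eWAT), and the value was -0.86 in lane 1 alone (adjusted p = 0.069). The eWAT over BAT value of 0.99 ± 0.33 (adjusted p = 0.011) was lost without eWAT mice 1 and 3 (adjusted p = 0.057), and BAT itself varied from 4.83 RPKM in mouse 2 to 23.2 in mouse 17. For iWAT over BAT the value was -0.06 (adjusted p = 0.86) and 0.81 without scaling. Rgs16, induced by immune and fasting signals in other tissues, was 2.82 to 15.8 RPKM (median 4.91) in iWAT, 2.005 to 5.03 (median 3.28) in eWAT and 0.0844 to 0.233 (median 0.184) in BAT. Both white depots were above BAT, by 4.62 ± 0.46 (adjusted p = 1.8e-07) and 3.76 ± 0.28 (adjusted p = 6.8e-09), on 6 to 21 reads in BAT. The white depots overlapped for Rgs16, with 0.89 for iWAT over eWAT (adjusted p = 0.055), and 0.23 without iWAT mice 1 and 5 (adjusted p = 0.48). With all libraries it passed under DESeq2, upper-quartile scaling, no filter on low counts and the fit of all 18 libraries. Rgs3 was 4.57 to 6.55 RPKM (median 5.08) in iWAT, 1.62 to 3.08 (median 2.12) in eWAT and 2.69 to 3.85 (median 2.995) in BAT. It was lowest in eWAT, with 1.24 ± 0.14 (adjusted p = 7e-06) for iWAT over eWAT and -1.08 ± 0.14 (adjusted p = 4.2e-06) for eWAT over BAT, the latter not passing without scaling. The Rgs3 value for iWAT over BAT was 0.13 (adjusted p = 0.24) and did not pass, but did so without scaling.

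The RGS7 family acts together with the β5 subunit, mainly in neurons and retina. Of its genes, Rgs7 alone reached 1 RPKM, and it was 0.611 to 1.24 RPKM (median 1.03) in iWAT, 0.072 to 0.441 (median 0.359) in eWAT and 4.07 to 5.17 (median 4.79) in BAT. BAT was highest and eWAT lowest, without overlap, with 1.69 ± 0.32 (adjusted p = 0.00041) for iWAT over eWAT, -2.87 ± 0.16 (adjusted p = 2.4e-10) for iWAT over BAT and -4.54 ± 0.26 (adjusted p = 3.2e-10) for eWAT over BAT. Rgs6 and Rgs9 were also highest in BAT, at medians of 0.165 and 0.0664 RPKM, with -1.80 ± 0.27 (adjusted p = 1.7e-05) and -2.33 ± 0.34 (adjusted p = 1.3e-05) for iWAT over BAT and -4.09 ± 0.36 (adjusted p = 4.9e-08) and -1.74 ± 0.23 (adjusted p = 5e-06) for eWAT over BAT. Their reads were few, with 5 to 19 in iWAT, 0 to 4 in eWAT and 12 to 34 in BAT for Rgs6. Rgs9 had 4 to 20, 10 to 23 and 18 to 50 reads in these tissues. Rgs6 reached the mean of 10 reads through BAT alone in both comparisons, as did Rgs9 for iWAT over BAT. A high level in BAT was thus a condition of these tests. The RPKM of Rgs6 overlapped between iWAT and BAT. Rgs11 was tested against BAT in eWAT alone, with -0.65 ± 0.36 (adjusted p = 0.1), and passed there with the replicate block (adjusted p = 0.031), but was 0.26 without scaling. Gnb5 did not share this order, since it was highest in iWAT. Rows of other symbols overlap the Rgs7 row, whose length of 6075 bases compares with 1418 in the longest coding transcript.

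Of the last RGS genes, Rgs12 was 0.774 to 2.33 RPKM (median 1.39) in iWAT, 0.709 to 1.14 (median 0.852) in eWAT and 0.662 to 0.9502 (median 0.854) in BAT. The iWAT over eWAT value was 0.76 ± 0.23 (adjusted p = 0.0099), with overlap of the groups, and was 0.67 in lane 2 alone (adjusted p = 0.18), and its call was lost without iWAT mice 1 and 5 (adjusted p = 0.063). Its eWAT over BAT value of -0.48 ± 0.12 (adjusted p = 0.0016) turned to 0.43 without scaling. The iWAT over BAT value was 0.25 (adjusted p = 0.28) and did not pass, but did so without scaling. Rgs17 and Rgs20 had at most 13 reads in any library and were not tested.

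**Figure D5:**
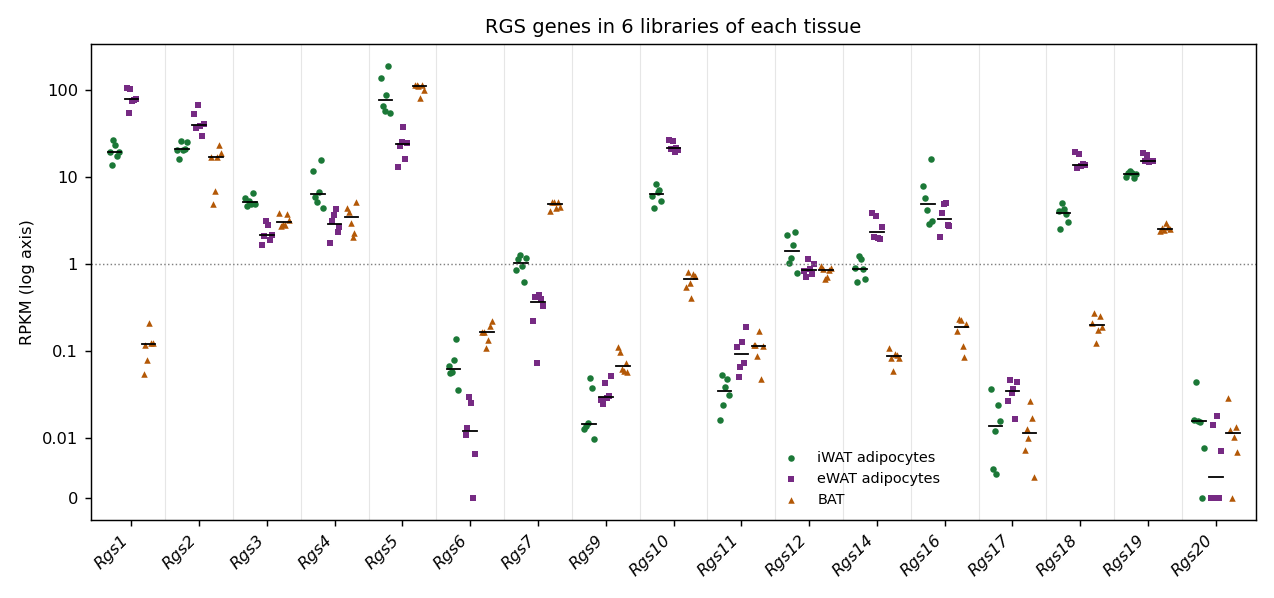
RPKM of the 17 RGS genes on a log axis, 1 point per library, with tissue medians as black lines, 1 RPKM as a dotted line and values of 0 at the bottom. Rgs1, Rgs10, Rgs14, Rgs18 and Rgs19 step down from eWAT to iWAT to BAT, and Rgs6, Rgs7 and Rgs9 are highest in BAT.

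Within eWAT, the libraries of mice 1 and 3 stood apart. They held Gnai1 at 20.4 and 14.2 RPKM, against 34.5 to 51.9 in the other 4 mice. Gnao1, Gna11 and Rgs7 were likewise lowest in these 2 libraries, at 0.565 and 0.441, 5.59 and 5.57, and 0.216 and 0.072 RPKM, whereas Gnai2, Rgs1, Rgs2 and Arrb2 were highest in them. Rgs1 was 105 and 102.6 RPKM there. The summed adipocyte markers were 3472 and 2542 RPKM in mice 1 and 3, against 5161 to 7898 in the others, and the summed macrophage markers were 4208 and 4146 RPKM against 2620 to 2883. Without these 2 libraries the number of members that passed was 34 for iWAT against eWAT and 40 for eWAT against BAT. Gnai1 then had a log2 fold change for iWAT over eWAT of 0.77 (adjusted p = 0.0014) and Rgs1 of -1.83 (adjusted p = 3.3e-06).

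Within iWAT, mice 1 and 5 had the highest levels of Rgs5, Rgs4, Rgs16 and Gng11. Rgs5 was 138 and 189 RPKM in them, against 53.9 to 86.7 in the other 4 mice, and Rgs4 was 11.6 and 15.7 against 4.39 to 6.73. The same libraries had the highest summed pericyte and smooth muscle markers, 104 and 107 RPKM against 44.3 to 64.7, and the highest endothelial sums, 244 and 286 against 101.4 to 182. Without these 2 libraries, 34 members passed against eWAT and 29 against BAT. Rgs11 then had enough reads to be tested and was -1.42 for iWAT over eWAT (adjusted p = 0.014) and -2.09 for iWAT over BAT (adjusted p = 0.00032). It had 2 to 6 reads per library in iWAT, 7 to 26 in eWAT and 7 to 19 in BAT. Rgs11 thus reached the read minimum through eWAT or BAT alone, once these iWAT libraries were dropped. A higher level outside iWAT was a condition of these Rgs11 tests, so they cannot decide its direction. Without mice 1 and 5, Rgs5 for iWAT over eWAT was 1.57 (adjusted p = 0.00028).

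The partners and effectors of these proteins were followed in 58 further genes, namely further G protein, arrestin and RGS genes, chaperones, α-arrestins, phospholipase C-β, adenylyl cyclases and targets of βγ. Of those tested, 31 of 40 passed between iWAT and eWAT (13 higher in iWAT, 18 lower), 31 of 40 between iWAT and BAT (15 higher, 16 lower) and 34 of 41 between eWAT and BAT (21 higher, 13 lower), against 68.6%, 75.3% and 82.5% of all genes. Adcy5, a Gi-sensitive adenylyl cyclase, had medians of 20.8, 11.3 and 0.393 RPKM in turn in iWAT, eWAT and BAT, with 5.19 ± 0.24 (adjusted p = 2.9e-11) for iWAT over BAT. Adcy6, which is also inhibited by Gi, had medians of 19.8, 7.805 and 16.2 RPKM in turn in iWAT, eWAT and BAT, with 1.498 ± 0.19 (adjusted p = 2.1e-05) for iWAT over eWAT and -1.81 ± 0.19 (adjusted p = 3.7e-07) for eWAT over BAT. Adcy7, prominent in leukocytes, had medians of 8.502, 32.4 and 0.615 RPKM in turn in iWAT, eWAT and BAT, with 5.03 ± 0.17 (adjusted p = 6.6e-13) for eWAT over BAT. Adcy3 and Adcy9 were lower in iWAT than in BAT, at -1.34 ± 0.11 (adjusted p = 2.8e-08) and -1.18 ± 0.096 (adjusted p = 1.9e-08). Of the 9 adenylyl cyclase genes, 6 were tested in each comparison and 6, 5 and 4 of them passed. Of 5 α-arrestins, 4, 4 and 5 passed, and of 9 chaperones and exchange factors, 5, 7 and 8 passed. Of 9 other proteins with an RGS domain 6, 7 and 7 passed, of 4 phospholipase C-β genes 3 passed in each, of 3 partners of the RGS7 family 1, 2 and 2 passed, and of 12 further G protein, arrestin and RGS genes 3, 1 and 2 passed, out of those with enough reads.

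Among the targets of βγ, the subunits of a phosphoinositide 3-kinase were highest in eWAT. Of the 7 channels and kinases gated by βγ, 3 were tested and 3, 2 and 3 passed. Pik3cg, the catalytic subunit of that kinase, had medians of 1.19, 4.65 and 0.151 RPKM in turn in iWAT, eWAT and BAT, with -2.06 ± 0.15 (adjusted p = 2.7e-07) for iWAT over eWAT and 4.46 ± 0.15 (adjusted p = 6.1e-13) for eWAT over BAT. Pik3r5, a regulatory subunit, had medians of 5.84, 27.7 and 0.292 RPKM in turn in iWAT, eWAT and BAT, with -2.09 ± 0.17 (adjusted p = 4.9e-07) for iWAT over eWAT, 3.87 ± 0.18 (adjusted p = 4.2e-11) for iWAT over BAT and 5.99 ± 0.14 (adjusted p = 5.1e-14) for eWAT over BAT. Gpsm3, which binds inactive Gi in leukocytes, was likewise higher in eWAT, at -2.09 ± 0.16 (adjusted p = 3.9e-07) for iWAT over eWAT. Pik3cg and Pik3r5 had the order of the macrophage marker sums given above. The part of macrophage RNA in the values of Pik3cg, Pik3r5 and Gpsm3 was not tested.

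Rgs7bp, the palmitoylated anchor of RGS7 proteins, was highest in iWAT, with medians of 6.38, 2.01 and 0.138 RPKM in turn in iWAT, eWAT and BAT, 1.93 ± 0.31 (adjusted p = 0.00013) for iWAT over eWAT and 5.07 ± 0.22 (adjusted p = 1.3e-11) for iWAT over BAT. This was not the order of Rgs7, which was highest in BAT. Plcb4, an effector of Gq, was lowest in eWAT, with 1.53 ± 0.20 (adjusted p = 2.6e-05) for iWAT over eWAT and -2.46 ± 0.16 (adjusted p = 1.4e-09) for eWAT over BAT. Axin2, an RGS-domain protein of Wnt signaling, was highest in BAT, with -2.03 ± 0.16 (adjusted p = 1.3e-08) for iWAT over BAT and -2.94 ± 0.26 (adjusted p = 3.7e-08) for eWAT over BAT.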

How the data were processed

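RNA from 18 libraries of HFD mice (NEBNext Ultra, Illumina HiSeq) was trimmed with cutadapt 1.16 and aligned with HISAT2 2.1.0, per the submitters' processing notes. The deposited tables hold read counts and RPKM for transcript rows on mm9. The program and annotation used for counting, its strand setting and its handling of reads with several hits are not given in the sources used here, so reads of overlapping genes cannot be told apart. The deposited RPKM were counts divided by the row's exon length and by 1 total per library, within 0.000813%, with no scaling for composition. A row joins all exons of a gene, which lowers the RPKM of genes with long alternative exons. For symbols with several rows (1220), the row with the highest mean RPKM was used.

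Each pair of tissues was tested on its 12 libraries with edgeR 4.0.16 (quasi-likelihood test, TMM scaling) in R 4.3.3 over all symbols with a mean of at least 10 reads, with Benjamini-Hochberg adjustment over all of them and a threshold of 0.05. Members given in full were the 3 most abundant of each class in each tissue, those past the threshold with an absolute log2 fold change of at least 1 and a mean of at least 1 RPKM in either tissue, and those whose call or direction changed under an alternative. Pathway genes named were the 3 largest changes in each direction past the threshold, with the same RPKM minimum. Values are given as log2 fold change ± SE (n = 6 per tissue). The members and lists were chosen with earlier results of these data known. On simulated counts for iWAT against eWAT, iWAT against BAT and eWAT against BAT, few of 19073, 18949 and 19104 genes were changed. These were 98, 93 and 117 genes changed by 1 on the log2 scale, and 102, 107 and 83 changed by 2. Of those changed by 1, 87.8%, 90.3% and 86.3% were recovered. Recovery with as many changed genes as in the real data, or with the composition shift seen against BAT, was not tested. Alternatives were a replicate block, DESeq2 1.42.0, no scaling, upper-quartile scaling, other filters, summed rows, 1 fit of all 18 libraries, limma 3.58.1 on log2(RPKM + 0.1) and log2(RPKM + 1), lane, and, chosen after seeing the data, coding transcript lengths, symbols without overlapping rows and fits without libraries that stood apart. Equal mouse numbers were read as the same mouse from the labels. In the block fits against BAT, mice with a library of only 1 of the 2 tissues add nothing to the difference, which leaves 4 pairs. The deviations of same-numbered libraries had mean correlations of -0.0114 over 6 pairs of white libraries, and -0.0108 and 0.0154 over 4 pairs of iWAT or eWAT with BAT. Libraries of 1 tissue differed by more than counting noise, the chi-square of any pair, divided by its degrees of freedom, being 16 or more. The last codons were read from GENCODE vM1 transcripts and their positions from its annotation. They are shared by all complete coding transcripts of the genes shown except Gnas, with 6 of 11.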

Additional observations from a re-analysis of the deposited data

Results flagged for a closer look

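In 6 of 156 groups of 6 libraries (52 members in 3 tissues), 1 library lay far from the others of its tissue by Dixon's test. Chance flags about 1 in 20 groups, which is about 7.8 of 156. Gng2 was lowest in the iWAT library of mouse 2, at 6.949 RPKM, against 8.425 to 9.197 in the other 5. Gng7 was highest in the BAT library of mouse 17, at 1.774 RPKM, against 1.305 to 1.459 in the others. The remaining flags rest on few reads. Gng4 was 0.1026 RPKM in the iWAT library of mouse 5, on 10 reads, and Rgs20 was 0.04316 RPKM in the iWAT library of mouse 2, on 5 reads. Gnb3 was 0.0125 RPKM in the iWAT library of mouse 3 and 0.01152 RPKM in the BAT library of mouse 1, each on 1 read.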

How the results depend on the processing

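Of the members tested, 30 of 44 kept sign and call for iWAT against eWAT under every alternative run that left the fold threshold as it was, 23 of 44 for iWAT against BAT and 32 of 46 for eWAT against BAT. With mouse as a replicate block, 34, 27 and 40 members passed. Against BAT the block fits rest on the 4 mice with a library of both tissues, so they use fewer libraries. Of all genes, 12555 then passed for iWAT against BAT, against 14864 without the block, and 15149 for eWAT against BAT, against 16561. The block took away the calls of Gna12, Gnb1, Gng7 and Grk5 (iWAT against BAT) and of Gng5, Grk4 and Grk6 (eWAT against BAT), added Rgs4 and Rgs11, and changed no other call. Upper-quartile scaling took away the calls of Gnb2, Gng5 and Grk6 (eWAT against BAT), Gnb1 (iWAT against BAT) and Arrb1 (iWAT against eWAT). For iWAT against BAT, 10 further members gained a call, as higher in iWAT, without scaling and in both limma fits. They were Gnaz, Gna13, Gnb2, Gnb4, Gng11, Rgs3, Rgs4, Rgs12, Adrbk1 and Grk6. Counts fell to 14, 10 and 17 where symbols with an overlapping row were left out, since 17, 16 and 18 members were then tested, and to 20 for iWAT against eWAT where an absolute log2 fold change of at least 1 was asked for.

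Among values past the threshold in either fit, directions turned in the comparisons with BAT, under fits without composition scaling, and in none between the white depots. For iWAT over BAT, the log2 fold change without scaling, and with limma on log2(RPKM + 0.1) and log2(RPKM + 1), was 0.78, 0.53 and 0.50 for Gna11, 0.64, 0.40 and 0.39 for Gna12, 0.61, 0.31 and 0.16 for Gng3, 0.59, 0.34 and 0.28 for Gng5, 0.53, 0.26 and 0.17 for Gng7, 0.33, 0.075 and 0.072 for Gng12, and 0.81, 0.73 and 0.68 for Rgs2, and without scaling 0.16 for Rgs5. For eWAT over BAT these were 0.91, 0.59 and 0.56 for Gng12, 0.43, 0.092 and 0.049 for Rgs12, and 0.50, 0.18 and 0.15 for Grk5, and without scaling 0.52 for Gnb5, 0.60 for Gng3, 0.081 for Rgs4 and 0.022 for Grk4.

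The mean share of the α classes moved with the length used. By reads not divided by length, the Gs share was 37.4%, 27.9% and 80.8% in iWAT adipocytes, eWAT adipocytes and BAT, the Gi share 37.9%, 35.2% and 8.28%, the Gq share 11.4%, 9.22% and 4.41%, and the G12 share 13.3% and 6.48% in iWAT adipocytes and BAT. Per length of the longest coding transcript, they were 32.4%, 24.2% and 78.8% for Gs, 48.4%, 48.7% and 11.4% for Gi, 8.83%, 6.99% and 3.96% for Gq, and 10.4%, 20.2% and 5.83% for G12. A count of 3 reads or fewer was below what this depth resolves.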
